A study of Homo sapiens with 24 samples.

Results

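The 6 transcripts described here encode no protein and were followed across 4 cancer cell lines and 2 oxygen levels, namely the microRNA host transcripts MIR17HG and MIR210HG and the long noncoding RNAs NEAT1, MALAT1, H19 and PVT1. They were taken by symbol and are 6 of the 23106 gene symbols in each count table. They were selected on their measured changes in hypoxia, the log2 fold changes of these same libraries, so the comparison of hypoxia with normoxia is given for them as a description. Where they passed the thresholds used for all genes, this is counted beside the share of all genes that passed, and it is not a test of them. Tests are given for their normoxic levels between lines and for other genes. The lists of other genes were chosen with earlier results of these data known, and some of their genes were named for the size of their change. The adjusted p values of such genes in hypoxia are therefore a description too.

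The libraries were made from polyadenylated RNA of 4 human cancer lines: A549 from lung, HCT116 from colon or rectum, PC3 from prostate and T47D from breast. Each line was kept either in 21% oxygen (normoxia) or in 0.5% oxygen for 16 h (hypoxia), with 3 libraries per group and 24 in all. No gene was altered in any group, and hypoxia was the single treatment. The culture medium was shared by A549 and PC3 cells and differed for the other lines, so that line and medium cannot be told apart except between A549 and PC3 cells. The labels do not say whether the 3 libraries of a group came from separate cultures, so p values measure the spread between these libraries, which may be technical.

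The identity of the lines was checked on marker genes fixed for each tissue. T47D cells carried 3 of 4 breast markers at high levels, ESR1 (166 CPM in normoxia, mean of 3 libraries, in CPM, which are counts scaled to library size), PGR (635 CPM) and GATA3 (708 CPM), whereas the other, TFF1, was at 1.61 CPM there and at 19.6 CPM in PC3 cells. PC3 cells carried HOXB13 (75.1 CPM), but the prostate marker KLK3 was at 0 in all of their libraries. HCT116 cells carried the intestinal factor CDX2 (11.8 CPM), with VIL1 at 0, LGALS4 at 0.0736 CPM and CDH17 at 0.056 CPM in normoxia. CDH17 was higher in A549 cells (14.6 CPM). Of the 5 lung markers, none exceeded 0.438 CPM in normoxic A549 cells, and the surfactant gene SFTPA1 was at 0. The lung markers NKX2-1 (0.936 CPM) and NAPSA (1.04 CPM) were higher in HCT116 cells than in A549 cells (0 and 0.438 CPM), so the lung and colorectal lists do not tell these 2 lines apart as labelled. The epithelial keratin gene KRT8 was abundant in all 4 lines (1180 to 4700 CPM in normoxia), whereas EPCAM was at 4.01 CPM in A549 cells and at 172 to 393 CPM in the other lines. Of the markers of other cell types, the fibroblast collagen gene COL1A1 was between 13.3 and 38.8 CPM in normoxia, the endothelial gene PECAM1 was at most 0.934 CPM in normoxia, and the leukocyte marker PTPRC was at or below 0.261 CPM in each group.

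MicroRNA host transcripts are the long precursors from which hairpins are cut by DROSHA and then DICER1, and the mature microRNAs lower the output of messenger RNAs that match their seed, the short stretch near their 5′ end. MIR17HG carries the miR-17-92 cluster, a set of growth-promoting microRNAs that MYC and E2F factors activate. MIR210HG carries miR-210, the microRNA best known for its induction by hypoxia-inducible factor (HIF). H19 is an imprinted RNA next to IGF2 and hosts miR-675. NEAT1 is the scaffold of paraspeckles, nuclear bodies built on proteins such as NONO and SFPQ, and its neighbour MALAT1 is an abundant RNA of nuclear speckles. PVT1 lies beside the oncogene MYC and is often amplified with it.

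The mature microRNAs of the 3 hosts are shown because the count tables hold the host transcripts and not these products. Capitals mark the seed (bases 2 to 8), and the sequences are from RefSeq on GRCh38.p14.
miR-17-5p: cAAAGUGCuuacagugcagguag
miR-20a-5p: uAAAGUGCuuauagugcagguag
miR-18a-5p: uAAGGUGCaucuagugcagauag
miR-19a-3p: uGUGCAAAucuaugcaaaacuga
miR-19b-3p: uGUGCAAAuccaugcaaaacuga
miR-92a-3p: uAUUGCACuugucccggccugu
miR-210-3p: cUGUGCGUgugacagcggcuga
miR-675-5p: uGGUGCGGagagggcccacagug
miR-675-3p: cUGUAUGCccucaccgcuca
The first 6 come from MIR17HG, and their hairpins lie within 787 bases of chr13:91350605-91351391 on the plus strand. They fall into 4 seed groups. miR-17-5p and miR-20a-5p share the seed AAAGUGC and differ at positions counted from 1 at the 5′ end as C1U and C12U. miR-18a-5p has 1 seed difference from miR-17-5p (A4G). miR-19a-3p and miR-19b-3p share the seed GUGCAAA and differ by U11C. miR-210-3p and both arms of miR-675 have seeds of their own.

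The tables also hold 14 rows for microRNAs that lie inside these transcripts, MIR17, MIR210 and MIR675 among them, and each was at 0 in all 24 libraries. Selection for polyadenylated RNA leaves out mature microRNAs. A fragment that lies wholly inside a hairpin within an exon of its host would belong to both rows and be counted for neither. The 0 therefore does not measure the microRNAs, and the host rows are read as levels of the host transcripts alone.

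MIR210HG lies at chr11:565657-568457 on the minus strand (GRCh37, GENCODE annotation), and its RefSeq promoter is shown because this transcript was higher in hypoxia in each line. HIF binds the core motif ACGTG or GCGTG, and capitals mark the matches in chr11:568408-568707 (GRCh38.p14, minus strand, 5′ to 3′).
MIR210HG promoter: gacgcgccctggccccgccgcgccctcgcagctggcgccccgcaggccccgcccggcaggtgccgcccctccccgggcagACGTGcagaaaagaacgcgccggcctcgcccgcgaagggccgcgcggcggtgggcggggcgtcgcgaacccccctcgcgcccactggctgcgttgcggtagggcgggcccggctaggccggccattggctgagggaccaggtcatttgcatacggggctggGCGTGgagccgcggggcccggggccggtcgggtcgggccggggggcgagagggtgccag
One match starts 170 bases and the other 9 bases before the transcription start, and neither is part of the E-box CACGTG. The same search of both strands found 0 matches in the MIR17HG promoter, 0 in the H19 promoter, and 2 and 1 in the windows of the 2 MALAT1 starts. Of 35116 promoters of this length, 48.4% held at least 1 match and 7.26% held an E-box, so a match is common, and a match is not evidence of binding.

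Between 22698584 and 62850747 fragments were counted on genes per library. At these depths, 3 counts, taken as the floor of a library, correspond to between 0.0436 and 0.132 CPM. All 6 transcripts passed the filter on low counts in each line. The lowest counts were 4 for H19 and 18 for MIR210HG, and NEAT1 and MALAT1 never fell below 1736. Across genes, log2 CPM correlated least between libraries of a group in T47D and HCT116 cells, with r as low as 0.967 and 0.971, against 0.984 or more in the other lines. In T47D cells the pair of replicates 2 and 3 gave the lowest r in each state, and replicate 3 had the NEAT1 levels farthest below the others, so T47D values are also given without it, a choice made after the values were seen.

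MIR210HG was higher in hypoxia in each line, and its increase in A549 cells was the largest of the 6 transcripts in any line. In A549 cells, its level was 0.669, 0.591 and 0.325 CPM in normoxia (replicates 1 to 3) and 9.4, 10.4 and 7.26 CPM in hypoxia. The normoxic values rest on 34, 33 and 18 counts, and all 3 hypoxic libraries were well above them. The mean rose from 0.528 ± 0.18 to 9.02 ± 1.61 CPM (SD, n = 3), a ratio of 17.1 and a log2 fold change of 4.09 (SE 0.28). In HCT116 cells, it was 1.17, 1.52 and 2.46 CPM in normoxia and 9.25, 16.9 and 13.6 CPM in hypoxia, with a log2 fold change of 2.83 (SE 0.31).

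In T47D cells, MIR210HG was at 2.44, 2.99 and 1.13 CPM in normoxia and at 8.89, 9.29 and 7.79 CPM in hypoxia, a log2 fold change of 1.89 (SE 0.34), or 1.64 without replicate 3 of both states. PC3 cells started highest, at 5.68, 3.59 and 4.84 CPM, and reached 8.32, 7.63 and 8.54 CPM, a log2 fold change of 0.76 (SE 0.19). The oxygen states did not overlap in any line. The 4 lines differed more before hypoxia than in it: the highest line mean was 8.9 times the lowest in normoxia (PC3 over A549) and 1.62 times the lowest in hypoxia (HCT116 over PC3).

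MIR17HG (chr13:91999940-92049846, GRCh37, plus strand) showed the opposite direction and was lower in hypoxia in each line. In HCT116 cells, it was at 21.7, 20.9 and 9.62 CPM in normoxia and at 3.09, 1.17 and 1.59 CPM in hypoxia, so that 11.2% of the normoxic mean remained (log2 fold change −3.27, SE 0.41). In A549 cells, it was at 3.99, 6.64 and 3.31 CPM in normoxia and at 1.17, 1.66 and 0.422 CPM in hypoxia (−2.10, SE 0.41). The lowest of these hypoxic values rests on 21 counts.

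In PC3 cells, MIR17HG was at 10.6, 5.58 and 10.5 CPM in normoxia and at 3.19, 2.5 and 3.76 CPM in hypoxia, the smallest fold change of the 4 lines (−1.54, SE 0.27). In T47D cells, it was at 5.57, 6.84 and 1.66 CPM in normoxia and at 0.891, 1.51 and 1.06 CPM in hypoxia (−2.12, SE 0.47). The states did not overlap in any line, although normoxia replicate 3 of T47D cells was close to the hypoxic libraries. All 12 hypoxic libraries were below the normoxic library of the same number, which follows from the lack of overlap. The T47D value was −2.47 without replicate 3 of both states.

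**Figure D1:**
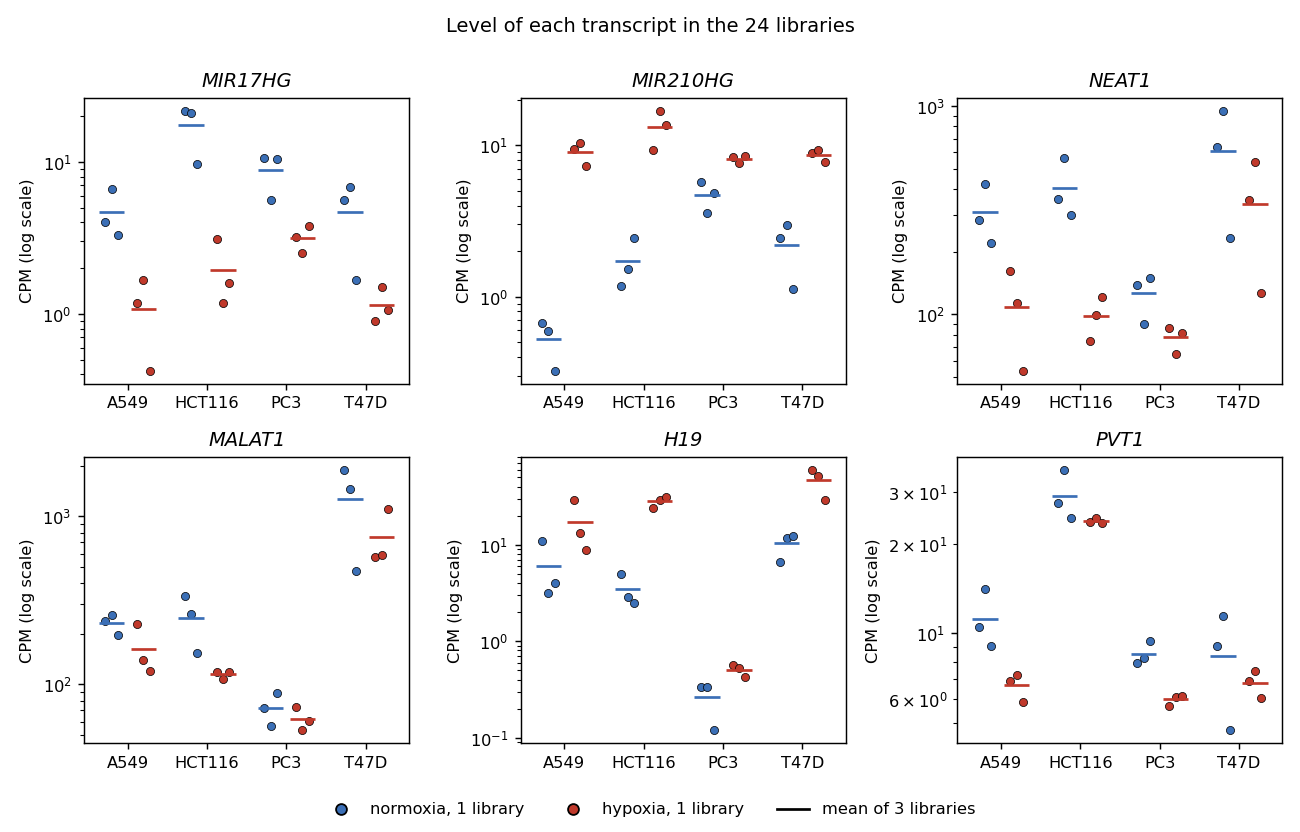
Level of each transcript in each of the 24 libraries, in CPM on a log axis that differs between panels, by cell line, with normoxia in blue, hypoxia in red and a horizontal line at the mean of 3 libraries. MIR210HG rises to between 8.16 and 13.2 CPM in all 4 lines from normoxic means between 0.528 and 4.7 CPM, and MIR17HG is lower in hypoxia in each line.

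H19 (chr11:2016396-2025782, GRCh37, minus strand) was higher in hypoxia in each same-numbered pair of libraries, in 12 of 12. Outside T47D cells the numbers were not taken as pairs, and the share of all genes with such a count was not computed. In HCT116 cells, it was at 4.93, 2.86 and 2.49 CPM in normoxia and at 24, 29.1 and 31.2 CPM in hypoxia, a log2 fold change of 2.90 (SE 0.28). In T47D cells, it was at 6.66, 11.8 and 12.4 CPM in normoxia and at 59, 50.9 and 29 CPM in hypoxia (2.09, SE 0.29, or 2.47 without replicate 3 of both states). Neither line showed overlap between the states.

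In A549 cells, H19 was at 10.8, 3.17 and 4.01 CPM in normoxia and at 29, 13.3 and 8.84 CPM in hypoxia (1.51, SE 0.46). These states overlapped, because the lowest hypoxic library was below the highest normoxic one, and hypoxia replicate 1 was the highest. Without hypoxia replicate 1 the log2 fold change was 0.89, and without normoxia replicate 1 it was 2.25. PC3 cells held little H19, with 4 to 26 counts per library, at 0.331, 0.331 and 0.119 CPM in normoxia and 0.562, 0.529 and 0.425 CPM in hypoxia (0.89, SE 0.47). The PC3 ratio of 1.94 therefore rests on few counts, and the log2 fold change was 0.57 without normoxia replicate 3.

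NEAT1 was lower in hypoxia in 12 of 12 same-numbered pairs, with the same limits as for H19. In HCT116 cells, it was at 360, 563 and 299 CPM in normoxia and at 74.4, 99.5 and 121 CPM in hypoxia (log2 fold change −2.18, SE 0.28). In A549 cells, it was at 285, 424 and 221 CPM in normoxia and at 162, 113 and 53.6 CPM in hypoxia (−1.51, SE 0.33). PC3 cells had the least, at 139, 89.9 and 150 CPM in normoxia and 86.3, 64.8 and 81.7 CPM in hypoxia (−0.76, SE 0.19). The states did not overlap in these 3 lines.

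In T47D cells, NEAT1 was at 639, 953 and 233 CPM in normoxia and at 354, 542 and 127 CPM in hypoxia (−0.94, SE 0.50). The libraries of a state spread 4.09-fold and 4.27-fold, so the states overlapped, while the ratio of hypoxia to normoxia was between 0.545 and 0.568 in each same-numbered pair. In T47D cells the replicate numbers were taken as pairs from the data. When the replicate number entered the fit as a block, the log2 fold change was −0.93. Without replicate 3 of both states it was also −0.93, and leaving out single libraries gave values from −1.43 (without hypoxia replicate 2) to −0.46 (without normoxia replicate 2).

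MALAT1 had a smaller log2 fold change than NEAT1 in A549, HCT116 and PC3 cells, and in T47D cells the order depended on replicate 3. In HCT116 cells, it was at 334, 262 and 154 CPM in normoxia and at 118, 108 and 119 CPM in hypoxia, without overlap (log2 fold change −1.26, SE 0.27). In A549 cells, it was at 239, 259 and 196 CPM in normoxia and at 228, 140 and 120 CPM in hypoxia (−0.51, SE 0.20), with values of −0.83 without hypoxia replicate 1 and −0.32 without hypoxia replicate 3. In PC3 cells, it was at 71.9, 56.7 and 88.3 CPM in normoxia and at 73.7, 53.3 and 60.4 CPM in hypoxia (−0.27, SE 0.18). The PC3 value was −0.07 without normoxia replicate 3 and −0.43 without normoxia replicate 2. The states overlapped in both of these lines.

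In T47D cells, MALAT1 was at 1880, 1450 and 471 CPM in normoxia and at 572, 588 and 1100 CPM in hypoxia (−0.85, SE 0.44). Replicate 3 went the other way from the other pairs, with a hypoxia to normoxia ratio of 2.33, and its normoxic library was the lowest of the 6 while its hypoxic library was the highest of its state. Without replicate 3 of both states the log2 fold change was −1.63, and without normoxia replicate 1 it was −0.43. The antisense transcript TALAM1 overlaps MALAT1 and has no row of its own, and the strand setting of the counting is not given in the sources used here, so MALAT1 counts may include antisense fragments. The long NEAT1 form and MALAT1 both lack an ordinary poly(A) tail, so that poly(A) selection need not recover them in full.

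NEAT1 and MALAT1 lie 52.1 kb apart on chromosome 11 (chr11:65190245-65213011 and chr11:65265111-65275544, GRCh37, plus strand). The count of NEAT1 relative to that of MALAT1 in the same library does not depend on library scaling. It was 1.2, 1.64 and 1.13 in normoxic and 0.71, 0.802 and 0.448 in hypoxic A549 cells. It was 1.08, 2.15 and 1.94 in normoxic and 0.633, 0.924 and 1.02 in hypoxic HCT116 cells. It was 1.93, 1.58 and 1.69 in normoxic and 1.17, 1.22 and 1.35 in hypoxic PC3 cells. The hypoxic ratios were the lower ones in these 3 lines without overlap. Both transcripts were chosen on their changes in hypoxia, so the ratio is a description. It does not say which of the 2 transcripts changed. In T47D cells, the ratio was 0.34, 0.657 and 0.494 in normoxia and 0.62, 0.921 and 0.116 in hypoxia, with the lowest and the highest value both in hypoxia.

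**Figure D2:**
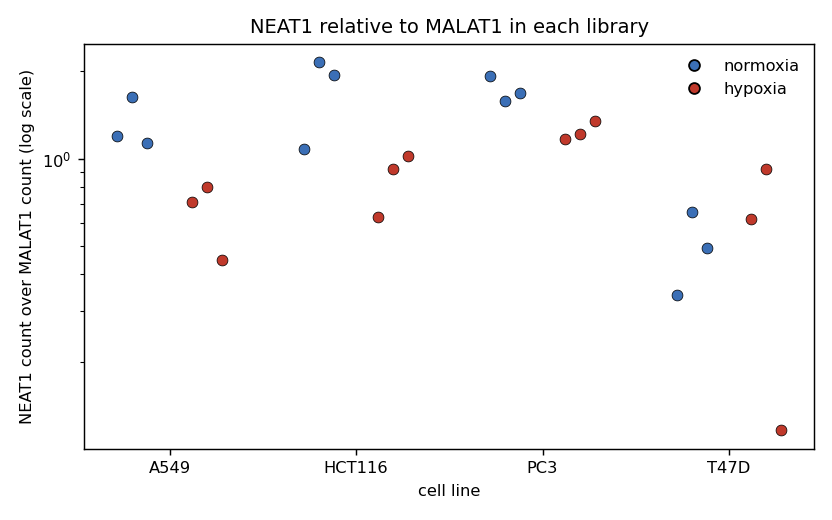
Count of NEAT1 divided by the count of MALAT1 in each library, on a log axis, by cell line, with normoxia in blue and hypoxia in red and 1 point per library. In A549, HCT116 and PC3 cells the hypoxic points lie below the normoxic ones, and in T47D cells they spread from 0.116 to 0.921 around them.

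PVT1 showed the smallest spread of changes. In A549 cells, it was at 10.5, 14.1 and 9.08 CPM in normoxia and at 6.92, 7.22 and 5.89 CPM in hypoxia (log2 fold change −0.75, SE 0.18). In PC3 cells, it was at 7.95, 8.25 and 9.44 CPM in normoxia and at 5.72, 6.13 and 6.17 CPM in hypoxia (−0.56, SE 0.14). HCT116 cells held the most, at 27.5, 35.4 and 24.5 CPM in normoxia and 23.7, 24.4 and 23.6 CPM in hypoxia (−0.41, SE 0.20). The states did not overlap in these 3 lines, although in HCT116 cells the nearest libraries were 24.5 and 24.4 CPM and the log2 fold change was −0.17 without normoxia replicate 2. In T47D cells, PVT1 was at 9.1, 11.4 and 4.72 CPM in normoxia and at 6.9, 7.46 and 6.04 CPM in hypoxia (−0.40, SE 0.31), and the states overlapped because of normoxia replicate 3. The value was −0.62 without replicate 3 of both states and −0.11 without normoxia replicate 2.

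**Figure D3:**
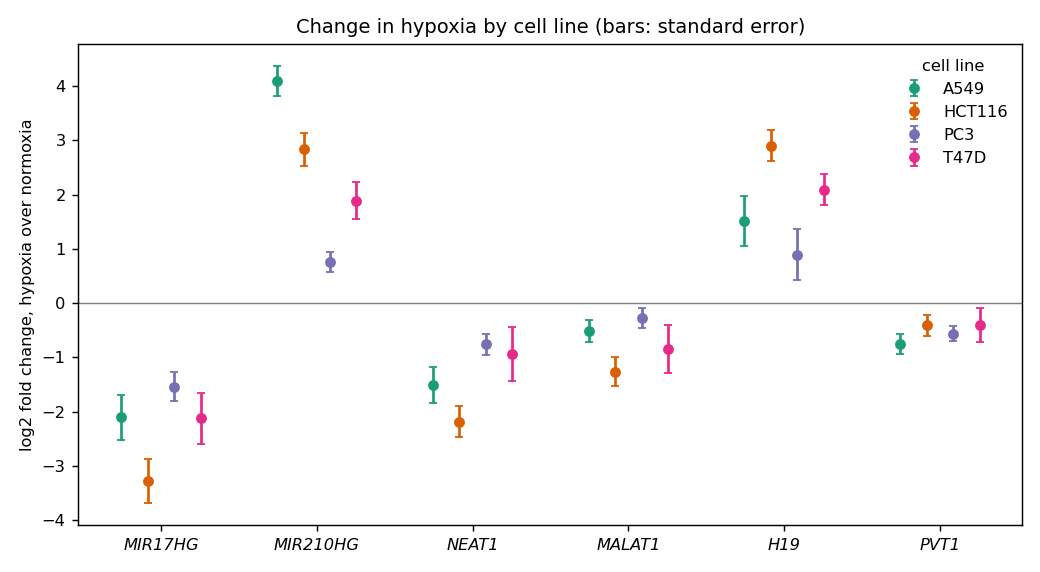
Log2 fold change of hypoxia over normoxia for each transcript in each of the 4 lines (points, coloured by line) with its standard error from the fit of that line (bars, n = 3 libraries per state). MIR210HG and H19 are above 0 in each line and the other 4 transcripts below 0, and MIR210HG spreads most between lines, from 0.76 in PC3 to 4.09 in A549 cells.

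Genes were called changed at a Benjamini-Hochberg adjusted p under 0.05 in edgeR's quasi-likelihood test and a fold change over 1.2. In A549 cells, MIR210HG and H19 were called higher and MIR17HG, NEAT1 and PVT1 lower, where 17.6% of all genes tested were called higher and 17.8% lower. In HCT116 cells, MIR210HG and H19 were called higher and MIR17HG, NEAT1 and MALAT1 lower (23.3% and 27% of all genes). In PC3 cells, MIR210HG was called higher and MIR17HG, NEAT1 and PVT1 lower (16.6% and 15.7%). In T47D cells, MIR210HG and H19 were called higher and MIR17HG lower (6.55% and 6.69%, or 1281 higher and 1485 lower genes with the replicate block against 922 and 942 without it). Under that block NEAT1 was also called lower in T47D cells. Among the 11734 genes tested in all 4 lines, 2.58% were called higher in all of them and 3.36% lower in all of them, MIR210HG and MIR17HG included. The share of calls that were increases was 49.8% in A549, 46.3% in HCT116, 51.5% in PC3 and 49.5% in T47D cells, and was 33.9%, 46.8%, 42.9% and 32.1% under scaling by total count. Leaving out 1 T47D library gave shares from 41.7% (without normoxia replicate 3) to 90.5% (without normoxia replicate 1, 180 higher and 19 lower). Because the changes in hypoxia chose the 6 transcripts, their calls are no evidence on them and nothing is read from the counts.

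States without overlap are a weaker criterion, met upward by 23.6% and downward by 24.3% of all genes in A549 cells, by 32.8% and 27.6% in HCT116 cells, by 28.4% and 22.2% in PC3 cells and by 19% and 13.3% in T47D cells. The 6 transcripts met it upward 1, 2, 2 and 2 times and downward 3, 4, 3 and 1 times in A549, HCT116, PC3 and T47D cells. Some of these descriptive calls depended on the fit. H19 in A549 cells lost its call in DESeq2 with all libraries, and in edgeR without hypoxia replicate 1, normoxia replicate 2 or normoxia replicate 3. NEAT1 in PC3 cells lost it without hypoxia replicate 2 or normoxia replicate 1, and PVT1 in PC3 cells without hypoxia replicate 1 or 2. In T47D cells, MIR17HG lost it without normoxia replicate 1 or 2 and MIR210HG without normoxia replicate 1. Other calls were gained. MALAT1 in A549 cells was called lower in DESeq2, under scaling by total count, without the filter, under the replicate block and without hypoxia replicate 1, and MALAT1 in PC3 cells was called lower without normoxia replicate 2. In T47D cells, MALAT1 was called lower without normoxia replicate 3, and NEAT1, MALAT1 and PVT1 were called lower without replicate 3 of both states.

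The spread of the fold changes between lines is likewise a description for these 6 transcripts, since it is made of the values that chose them. It was widest for MIR210HG, with log2 fold changes of 4.09, 2.83, 1.89 and 0.76 in A549, HCT116, T47D and PC3 cells. The line with the largest fold change of MIR210HG, A549, had its lowest normoxic level, and PC3, with the smallest, had its highest. The normoxic level is the denominator of the fold change, so this inverse order is partly built in. For the other genes named below, whether the change differed between lines was tested as an interaction term over the 24 libraries together, which 18.3% of 16089 genes passed at an adjusted p under 0.05 in edgeR.

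The normoxic levels of all 6 transcripts differed between the lines in edgeR's test of the 12 normoxic libraries, as did 93.5% of 15616 genes, so that a difference between lines is the rule here. MALAT1 had the smallest adjusted p (2.94e-07). Its mean was 1270 ± 722 CPM (SD, n = 3) in T47D, 250 ± 90.4 CPM in HCT116, 231 ± 32 CPM in A549 and 72.3 ± 15.8 CPM in PC3 cells. HCT116 was below T47D (log2 difference −2.34, SE 0.39, adjusted p = 6.09e-05) and A549 above PC3 (1.68, SE 0.38, adjusted p = 0.00129), whereas A549 and HCT116 were not told apart (−0.11, SE 0.37, adjusted p = 0.815). In the 6 pairs of lines, a large part of all genes passed: 64.9% between A549 and HCT116, 60% between A549 and PC3, 66.6% between A549 and T47D, 65.6% between HCT116 and PC3, 68.5% between HCT116 and T47D and 67.8% between PC3 and T47D.

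NEAT1 followed the same order of lines, with means of 608 ± 361, 407 ± 138, 310 ± 104 and 126 ± 31.8 CPM (SD, n = 3; adjusted p = 0.000575 over the 4 lines). Only the last step of this order passed between neighbours (A549 over PC3, log2 difference 1.30, SE 0.40, adjusted p = 0.00977). H19 was at 10.3 ± 3.16 CPM in T47D, 6 ± 4.19 CPM in A549, 3.43 ± 1.31 CPM in HCT116 and 0.261 ± 0.122 CPM in PC3 cells (adjusted p = 1.65e-06). Its neighbours in the order were not told apart except HCT116 and PC3 (3.69, SE 0.55, adjusted p = 2.14e-05).

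PVT1 was highest in HCT116 cells (29.1 ± 5.66 CPM), and A549 cells, the next line, were below them (11.2 ± 2.56 CPM; log2 difference −1.38, SE 0.27, adjusted p = 0.000301), and A549, PC3 (8.55 ± 0.785 CPM) and T47D cells (8.42 ± 3.42 CPM) were not told apart. MIR17HG was also highest in HCT116 cells (17.4 ± 6.77 CPM), ahead of PC3 (8.9 ± 2.88 CPM), T47D (4.69 ± 2.7 CPM) and A549 cells (4.65 ± 1.76 CPM). No neighbours in that order passed, and HCT116 differed from T47D (1.89, SE 0.44, adjusted p = 0.00128) and A549 from HCT116 cells (−1.91, SE 0.45, adjusted p = 0.00139). MIR210HG was highest in PC3 cells (4.7 ± 1.05 CPM), above T47D cells (2.19 ± 0.955 CPM; log2 difference 1.10, SE 0.40, adjusted p = 0.0221). T47D and HCT116 cells (1.72 ± 0.666 CPM) were not told apart, and A549 cells (0.528 ± 0.18 CPM) were below HCT116 cells (−1.70, SE 0.43, adjusted p = 0.00242). In these bulk libraries, less RNA per cell and fewer cells that carry a transcript cannot be told apart.

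Other host transcripts were examined as lists of symbols. Small nucleolar RNA (snoRNA) hosts carry snoRNAs in their introns and, as spliced RNAs, are short-lived in many cells. Of the 16 in the tables, all tested in each line, none rose in any line. In HCT116 cells 15 fell, in PC3 cells 12, and in A549 and T47D cells 6 each, against 27%, 15.7%, 17.8% and 6.69% of all genes. Their median log2 fold changes were −0.25 in A549, −1.68 in HCT116, −0.88 in PC3 and −0.57 in T47D cells, where the medians of all genes were −0.01, −0.03, −0.01 and −0.01.

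SNHG1, SNHG3, SNHG4, SNHG12 and SNHG15 fell in all 4 lines. SNHG12 fell from 37.7 to 6.6 CPM in HCT116 cells (log2 fold change −2.65, SE 0.28, edgeR adjusted p = 5.52e-05) and SNHG1 from 282 to 59.9 CPM (−2.37, SE 0.29, adjusted p = 0.000108). SNHG15 had its smallest decreases in PC3 (−1.12, SE 0.18) and T47D cells (−1.15, SE 0.31), the latter lost in 4 of the 6 fits lacking 1 T47D library. GAS5, a growth arrest RNA, fell in HCT116 (−2.46, SE 0.47, adjusted p = 0.001, or −1.57 without normoxia replicate 2) and PC3 cells (−1.20, SE 0.23, adjusted p = 0.00552), and had values of −0.29 (SE 0.29) in A549 and −0.79 (SE 0.32) in T47D cells. SNHG16, named after its values were seen, was the one host that passed in no line, with log2 fold changes between −0.23 and 0.12. The number that fell in T47D cells was 0 without normoxia replicate 1 or 2, 10 without hypoxia replicate 3 and 11 of 15 tested without replicate 3 of both states. In A549 cells, it was 2 without normoxia replicate 2.

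Of 17 other microRNA hosts in the tables, 11 were tested in A549, 9 in HCT116, 11 in PC3 and 9 in T47D cells. Of these, 5, 6, 1 and 3 fell, against 17.8%, 27%, 15.7% and 6.69% of all genes, and 1, 1, 1 and 0 rose, against 17.6%, 23.3%, 16.6% and 6.55%. MIR22HG, the host of miR-22, fell in all 4 lines, most in HCT116 cells (7.58 to 1.12 CPM, log2 fold change −2.90, SE 0.34, edgeR adjusted p = 8.99e-05), then in T47D (−1.82, SE 0.40), A549 (−0.99, SE 0.22) and PC3 cells (−0.82, SE 0.21). MIRLET7DHG, a let-7 host, fell in HCT116 (−4.18, SE 0.62, adjusted p = 0.000216, or −4.92 without hypoxia replicate 1) and A549 cells (−1.43, SE 0.52, adjusted p = 0.0494, between −2.08 without hypoxia replicate 1 and −0.88 without normoxia replicate 2). MIRLET7BHG fell in HCT116 (−1.99, SE 0.51) and T47D cells (−1.70, SE 0.44, or −1.04 without normoxia replicate 2), and DLEU2, the host of miR-15a and miR-16-1, in HCT116 (−1.80, SE 0.32) and A549 cells (−1.33, SE 0.30). Of the 6 fits lacking 1 library of the line, 4 lost the A549 call of MIRLET7DHG, 3 the T47D call of MIRLET7BHG, and 2 the T47D call and 1 the PC3 call of MIR22HG.

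MIR31HG took opposite directions. It fell in A549 (14.8 to 8.18 CPM, −0.86, SE 0.19, adjusted p = 0.00454) and HCT116 cells (−1.61, SE 0.41, adjusted p = 0.00594) and rose in PC3 cells (5.57 to 9.14 CPM, 0.66, SE 0.17, adjusted p = 0.0167), with an interaction adjusted p of 0.00439. MCM7 encodes a replication helicase subunit and hosts miR-106b-25, a relative of the miR-17-92 cluster. It rose in HCT116 cells (373 to 616 CPM, 0.61, SE 0.23, adjusted p = 0.0393), where MIR17HG had its largest decrease, and had values between −0.14 and −0.07 in the other lines. Its HCT116 call was lost in 5 of the 6 fits that left out 1 HCT116 library, and the PC3 call of MIR31HG in 2 of 6.

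**Figure D4:**
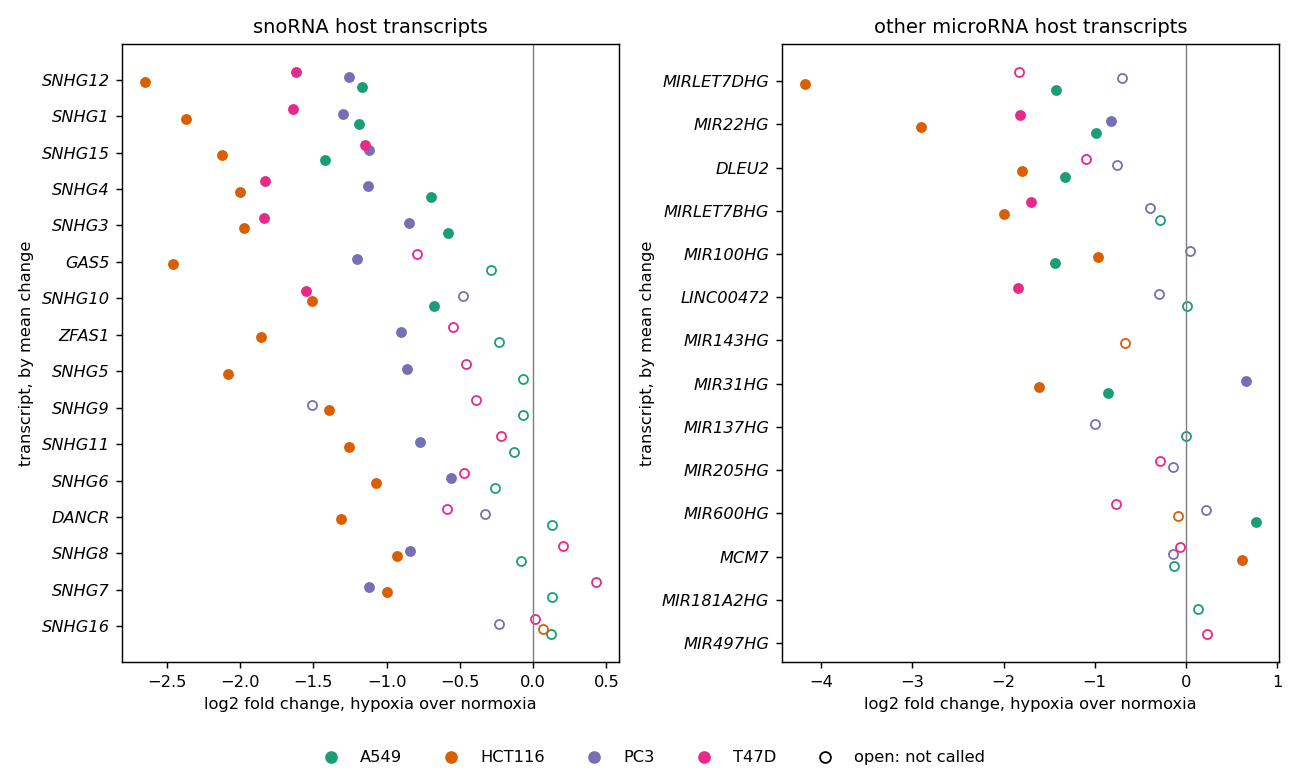
Log2 fold change of hypoxia over normoxia in each line (colours) for the 16 snoRNA host transcripts (left) and for those of the 17 other microRNA hosts that were tested in at least 1 line (right), ordered by their mean change. Filled points passed the thresholds of the fit of that line and open points did not. The called snoRNA hosts all lie below 0, with 15 in HCT116 cells, and MIR31HG has called points on both sides of 0.

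Among 18 other long noncoding RNAs in the tables, 13, 12, 12 and 11 were tested in A549, HCT116, PC3 and T47D cells. In these lines 1, 3, 2 and 1 rose, where 17.6%, 23.3%, 16.6% and 6.55% of all genes did, and 3, 6, 3 and 0 fell, where 17.8%, 27%, 15.7% and 6.69% did. UCA1, a bladder cancer RNA, rose in HCT116 (30 to 151 CPM, log2 fold change 2.22, SE 0.27, edgeR adjusted p = 0.000101) and PC3 cells (12.6 to 72.6 CPM, 2.47, SE 0.21, adjusted p = 0.000162). TINCR, known from epidermal differentiation, rose in PC3 (2.52, SE 0.36) and HCT116 cells (1.49, SE 0.28). HOTAIRM1, from the HOXA locus, fell in HCT116 (−2.58, SE 0.40) and PC3 cells (−0.66, SE 0.19), and CRNDE fell in HCT116 (−1.99, SE 0.34) and A549 cells (−0.45, SE 0.14). LINC00657, also called NORAD, rose in HCT116 (131 to 285 CPM, edgeR adjusted p = 0.00101) and A549 cells (0.51, SE 0.14, adjusted p = 0.0133). Leaving out 1 library of the line lost the PC3 call of HOTAIRM1 in 4 of 6 fits, the A549 call of CRNDE in 4 and that of LINC00657 in 2.

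The genes beside the 6 transcripts were examined as a list. Of 15 neighbours in the tables, 12, 11, 12 and 11 were tested, and 4, 6, 3 and 2 rose in A549, HCT116, PC3 and T47D cells, against 17.6%, 23.3%, 16.6% and 6.55% of all genes. None fell in any line at these thresholds, against 17.8%, 27%, 15.7% and 6.69% of all genes. IGF2, the growth factor gene 125 kb from H19, rose in all 4 lines: from 13.3 to 35 CPM in A549 (log2 fold change 1.39, SE 0.27, edgeR adjusted p = 0.00276), from 13.3 to 29.8 CPM in HCT116 (1.05, SE 0.18), from 5.37 to 21.5 CPM in PC3 (1.94, SE 0.32) and from 1.6 to 6.99 CPM in T47D cells (2.04, SE 0.32). Its interaction with line did not pass (adjusted p = 0.272). In PC3 cells IGF2 rose where H19 stayed under 1 CPM.

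RASSF7 lies 1.63 kb from MIR210HG and rose in A549 (32.9 to 59.7 CPM, log2 fold change 0.86, SE 0.13, edgeR adjusted p = 0.000539), HCT116 (1.06, SE 0.20) and PC3 cells (0.28, SE 0.09, adjusted p = 0.0344). PHRF1, 8.01 kb away on the other side, rose in HCT116 cells (1.03, SE 0.26, adjusted p = 0.00503). LTBP3, 30.5 kb from MALAT1, rose in the same 3 lines as RASSF7 (0.56, 0.83 and 0.29 in A549, HCT116 and PC3 cells, with SE of 0.13, 0.22 and 0.09), while FRMD8, 9.25 kb from NEAT1, passed in no line. The PC3 increases of RASSF7 and LTBP3 did not pass without hypoxia replicate 1, 2 or 3 or without normoxia replicate 1 or 2.

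MYC, 51.6 kb from PVT1, rose in HCT116 (257 to 590 CPM, log2 fold change 1.08, SE 0.24, edgeR adjusted p = 0.00253) and T47D cells (62.1 to 131 CPM, 1.01, SE 0.22, adjusted p = 0.0147). In A549 and PC3 cells, where PVT1 was called lower, MYC had values of 0.20 (SE 0.13) and 0.03 (SE 0.10). MIR17HG was lower in HCT116 and T47D cells in the libraries in which MYC was higher. The T47D increase of MYC did not pass without normoxia replicate 1 (adjusted p = 0.117) or without normoxia replicate 2.

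**Figure D5:**
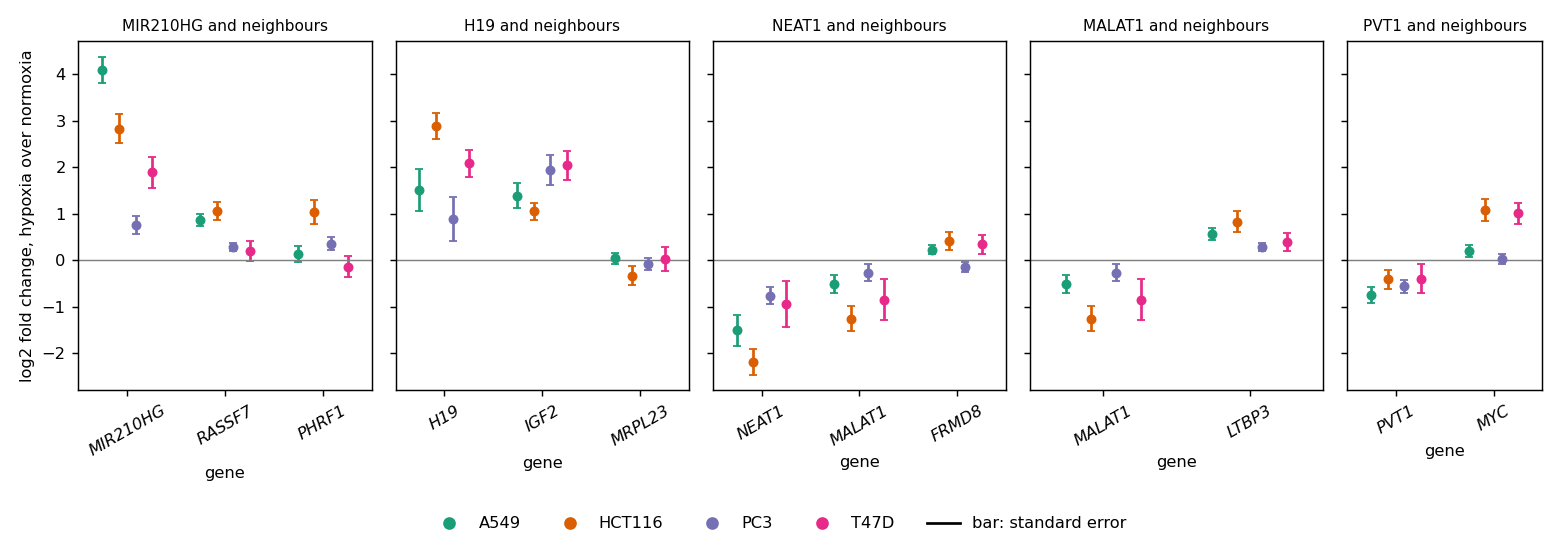
Log2 fold change of hypoxia over normoxia with its standard error (bars) in each line (colours) for MIR210HG, H19, NEAT1, MALAT1 and PVT1, each beside neighbouring genes on the same chromosome. IGF2 lies above 0 in each line, as H19 does, RASSF7 has values from 0.20 to 1.06 beside MIR210HG, and MYC has values at or above 0.03 where PVT1 is below 0.

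Of 10 regulators, MYC included, 9, 9, 9 and 10 were tested in A549, HCT116, PC3 and T47D cells. In these lines 2, 4, 1 and 1 rose, against 17.6%, 23.3%, 16.6% and 6.55% of all genes. The numbers that fell were 1, 0, 0 and 1, against 17.8%, 27%, 15.7% and 6.69% of all genes. E2F1, E2F2 and E2F3, the cell cycle factors that act on the miR-17-92 cluster, passed in no line. HIF1A, the HIF-1α gene, fell in A549 (373 to 146 CPM, log2 fold change −1.36, SE 0.12, edgeR adjusted p = 9.69e-06) and T47D cells (−0.72, SE 0.20, adjusted p = 0.0322), the latter lost in 5 of the 6 fits that left out 1 library. EPAS1, the HIF-2α gene, rose in HCT116 (13.4 to 60.3 CPM, 2.05, SE 0.25, adjusted p = 0.000108), A549 (0.54, SE 0.13) and PC3 cells (0.52, SE 0.15, lost in 3 of 6 such fits). ARNT, the partner of both HIF subunits, rose in HCT116 cells (0.66, SE 0.19). The 5 hypoxia controls CA9, NDRG1, EGLN3, ADM and VEGFA rose in all 4 lines, although the PC3 call of EGLN3 was lost without hypoxia replicate 1 or normoxia replicate 1, and those of ADM and VEGFA in a joint fit of the 24 libraries. NDRG1 rose from 71.6 to 1780 CPM in A549, from 54 to 1520 CPM in HCT116, from 302 to 1690 CPM in PC3 and from 2.77 to 285 CPM in T47D cells. As for MIR210HG, the log2 fold changes of all 5 controls were lowest in PC3 cells (NDRG1 2.43, CA9 1.81, EGLN3 1.5, VEGFA 0.56 and ADM 0.52).

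Paraspeckle proteins were measured beside NEAT1. All 16 were tested, and 1, 7, 0 and 1 rose in A549, HCT116, PC3 and T47D cells, against 17.6%, 23.3%, 16.6% and 6.55% of all genes. In the same lines 2, 1, 2 and 0 fell, against 17.8%, 27%, 15.7% and 6.69%. HNRNPM rose in HCT116 (288 to 698 CPM, log2 fold change 1.16, SE 0.27, edgeR adjusted p = 0.00354) and A549 cells (0.41, SE 0.15, adjusted p = 0.0447), and TAF15 in HCT116 (1.12, SE 0.25) and T47D cells (0.66, SE 0.20, adjusted p = 0.0491). The core protein gene NONO rose in HCT116 cells (0.59, SE 0.21, adjusted p = 0.0349), where NEAT1 had its largest decrease. PSPC1 fell in A549 (−0.67, SE 0.10) and PC3 cells (−0.39, SE 0.09). SMARCA4, a chromatin remodelling gene, rose in HCT116 (1.16, SE 0.23) and fell in A549 cells (−1.15, SE 0.26), where it was at 10.4 CPM in normoxia. Leaving out 1 library of the line lost the A549 call of HNRNPM and the T47D call of TAF15 in 4 of 6 fits each, the HCT116 call of NONO in 3 and the PC3 call of PSPC1 in 2.

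Of 12 microRNA processing genes, 1, 1, 3 and 0 rose and 3, 4, 1 and 0 fell in A549, HCT116, PC3 and T47D cells. Of all genes, 17.6%, 23.3%, 16.6% and 6.55% rose and 17.8%, 27%, 15.7% and 6.69% fell. DROSHA and DICER1, which cut the primary and precursor forms, passed in no line, with log2 fold changes between −0.31 and 0.08. DDX5, a helicase of the DROSHA complex, fell in A549 (705 to 429 CPM, −0.72, SE 0.11, edgeR adjusted p = 0.000551), HCT116 (−0.88, SE 0.23) and PC3 cells (−0.56, SE 0.10), and DDX17 in A549 (−0.48, SE 0.10) and HCT116 cells (−0.59, SE 0.19). PRKRA, a DICER1 partner, fell in HCT116 (−0.67, SE 0.22) and A549 cells (−0.38, SE 0.11). AGO1, which loads microRNAs, rose in A549 (0.50, SE 0.11), HCT116 (0.66, SE 0.23) and PC3 cells (0.37, SE 0.13, adjusted p = 0.0493). Of the 6 fits without 1 library of the line, 5 lost the PC3 call of AGO1 and 3 its HCT116 call, 4 the A549 and 3 the HCT116 call of PRKRA, 3 the HCT116 call of DDX17 and 1 that of DDX5.

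Messenger RNAs reported as targets of miR-210 were counted next. Of 13 in the tables, 13, 12, 13 and 12 were tested, and 3, 4, 2 and 2 rose in A549, HCT116, PC3 and T47D cells, against 17.6%, 23.3%, 16.6% and 6.55% of all genes. In the same lines 4, 4, 4 and 1 fell, against 17.8%, 27%, 15.7% and 6.69%. RAD52, a DNA repair gene, fell in all 4 lines (log2 fold changes −1.03, −1.27, −0.59 and −1.07, with SE of 0.22, 0.23, 0.19 and 0.30), although its call was lost in 4 of the 6 fits that left out 1 PC3 library and in 3 of 6 in T47D cells. CASP8AP2 and the succinate dehydrogenase subunit gene SDHD fell in A549, HCT116 and PC3 cells, with log2 fold changes between −1.50 and −0.50. EFNA3, an ephrin gene and a reported target, rose in all 4 lines (1.34, 1.37, 0.80 and 0.81, with SE of 0.22, 0.21, 0.14 and 0.20). MNT rose in A549, HCT116 and PC3 cells (0.92, 1.81 and 0.35), and NPTX1 in A549 (0.53, SE 0.12) and T47D cells, where it was at 0.0972 CPM in normoxia and 0.561 CPM in hypoxia. Of the fits without 1 library, 5 of 6 lost the T47D call of NPTX1, 4 the PC3 call of MNT, 3 that of CASP8AP2, 3 the PC3 and 3 the A549 call of SDHD and 2 the T47D call of EFNA3.

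Of 13 reported targets of miR-17-92, 13, 13, 12 and 12 were tested, and 2, 3, 1 and 2 rose in A549, HCT116, PC3 and T47D cells, against 17.6%, 23.3%, 16.6% and 6.55% of all genes, while 0, 0, 1 and 0 fell, against 17.8%, 27%, 15.7% and 6.69%. Their median log2 fold changes were 0.23, 0.38, −0.03 and 0.19. BMPR2, a BMP receptor gene, rose in A549 (77.1 to 159 CPM, 1.04, SE 0.14, edgeR adjusted p = 0.000265), HCT116 (0.83, SE 0.22) and PC3 cells (0.59, SE 0.11). CDKN1A, the cell cycle inhibitor p21, rose in HCT116 (123 to 366 CPM, 1.46, SE 0.28) and T47D cells (1.47, SE 0.24), as did STAT3 (1.29, SE 0.21, and 0.69, SE 0.21), and SMAD4 rose in A549 cells (0.33, SE 0.11). THBS1 fell in PC3 cells (1480 to 716 CPM, −1.10, SE 0.18). The T47D call of STAT3 and the A549 call of SMAD4 were each lost in 4 of the 6 fits that left out 1 library, and the T47D call of CDKN1A in 1. The microRNAs themselves were not measured, so these changes are not tied to them.

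The genes most like each transcript over the 24 libraries were named by Pearson's r of log2 CPM among 11270 genes with a mean log2 CPM over 1, as a description. The points share 4 lines and 2 oxygen states, so they are not independent. MIR210HG was closest to PDK1 (r = 0.903), AK4 (r = 0.897) and LOC143666 (r = 0.897), and after each line's mean was subtracted to the glycolytic gene ALDOC (r = 0.955), the mitophagy gene BNIP3L (r = 0.943) and FAM115C (r = 0.943). MIR17HG was closest to RRP7B (r = 0.956), and after subtraction to MARCH1 (r = 0.958), ABCA11P (r = 0.956) and LINC00338 (r = 0.956). NEAT1 was closest to TRPV1 (r = 0.952), and after subtraction to GOLGA8B (r = 0.965), PABPC1L (r = 0.961) and PNISR (r = 0.961).

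H19 was closest to THRA (r = 0.967) and SREBF1 (r = 0.962), and after subtraction to MTHFD1L (r = 0.938). PVT1 was closest to RNF138 (r = 0.952), and after subtraction to OSBPL7 (r = 0.897) and CEP95 (r = 0.876). MALAT1 had the lowest values after subtraction, with ANKS3 first (r = 0.852). Among the 6 transcripts themselves, the highest value after subtraction was that of MIR17HG with NEAT1 (r = 0.878, and 0.432 before subtraction). NEAT1 and MALAT1 had 0.677 after and 0.767 before subtraction, and H19 and MIR210HG 0.789 after and 0.166 before.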

How the data were processed

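Polyadenylated RNA of 24 libraries (4 cell lines, 2 oxygen states, 3 libraries each) was sequenced from directional libraries. The authors trimmed reads with Trim Galore (version 0.3.3), aligned them to GRCh37 with HISAT2 (version 2.05), removed reads that did not map uniquely with Picard (version 2.0.1) and deposited raw counts per gene symbol made with HTSeq (version 0.5.4p3, intersection-strict mode, UCSC gene models). The strand setting and the counted transcript lengths are not given in the sources used here, so levels are not compared between genes. Totals per library ran from 22698584 to 62850747, and floors of 3 counts cover counting error only.

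The counts were tested with edgeR (version 4.0.16, in R version 4.3.3) by the quasi-likelihood test after filterByExpr and TMM scaling, within each line for hypoxia against normoxia, over all 24 libraries for the interaction and over the 12 normoxic libraries for levels. Levels are CPM on TMM-scaled library sizes of all 24 libraries, log2 CPM used a prior count of 2, and standard errors were taken from the fold change and the F statistic. Calls needed a Benjamini-Hochberg adjusted p under 0.05 together with a change over 1.2-fold. The code was tested on simulated data.

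The 6 transcripts and all gene lists were chosen with earlier results of these data known. From each list, up to 4 genes called in at least 2 lines in the same direction were named by mean absolute log2 fold change, with up to 2 others and 1 more snoRNA host singled out after its values were seen, while neighbours, regulators and controls could all be named. Some genes of these lists are counted but not reported here. Alternatives were DESeq2 (version 1.42.0), other scalings and filters, a replicate block, a joint fit, and each library left out. Leaving out replicate 3 of both T47D states was added after seeing the data. Same-numbered libraries of the oxygen states deviated together with r over 0.1 in each pair in T47D cells (0.154, 0.325 and 0.303), where the numbers were taken as pairs from the data and not from the labels. Hypoxia replicate 1 with normoxia replicate 2 of T47D cells, which differ in number, also reached 0.118. In the other lines at least 1 same-numbered pair was under 0.1, which does not show that their numbers carry no pairing. No 2 libraries were identical. Promoters and microRNAs were matched in RefSeq by symbol, and positions on GRCh37 are from GENCODE.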

Additional observations from a re-analysis of the deposited data

Results flagged for a closer look

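The test of whether the change in hypoxia differed between lines is not used for the 6 transcripts, which were chosen on these changes. Genes named from the lists for the size of their change were picked on such values too. Their interaction p values below are therefore a description. Groups of 3 libraries are too small for a search for single outlying libraries. Of the named host transcripts and other noncoding RNAs, MIR31HG (interaction adjusted p = 0.00439, edgeR), MIR22HG (0.0208), MCM7 (0.0406), TINCR (0.00766), HOTAIRM1 (0.0241) and LINC00657 (0.0272) differed between lines. MIR31HG fell in A549 and HCT116 cells and rose in PC3 cells, and MIR22HG fell in all 4 lines but by different amounts, with an adjusted p of 0.0545 without hypoxia replicate 2 of HCT116 cells. Of the 24 fits lacking 1 library, 22 lost the interaction of MCM7, 8 that of LINC00657 and 3 that of HOTAIRM1, and of 6 other alternatives 4 lost that of MCM7 and 1 that of LINC00657.

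Of the neighbours, RASSF7 (interaction adjusted p = 0.0149), PHRF1 (0.041) and MYC (0.00819) differed between lines, with that of PHRF1 lost in 16 of the 24 fits without 1 library and in 3 of 6 other alternatives. Of the regulators and controls, HIF1A (0.00271), EPAS1 (0.00129), ADM (0.000146), CA9 (7.28e-09), EGLN3 (3.96e-05), NDRG1 (1.83e-05) and VEGFA (0.00808) did. Of the paraspeckle genes, SMARCA4 did (0.000206), with a decrease in A549 and an increase in HCT116 cells. Of the named reported microRNA targets, CDKN1A (0.00088), STAT3 (0.0243), THBS1 (0.0101), MNT (0.0103), NPTX1 (0.0241) and SDHD (0.0339) did. CTGF (0.0227), FGFRL1 (0.0339) and GPD1L (0.0356), reported targets not named above, passed as well. Leaving out 1 library lost that of STAT3 in 9 of 24 fits, that of SDHD in 3 and that of NPTX1 in 1, and 1 of 6 other alternatives lost that of SDHD. Across all genes, 18.3% of 16089 passed the same test.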

How the results depend on the processing

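No log2 fold change of the 6 transcripts changed sign in 323 recomputed values, of which 295 stayed on their side of the thresholds, called or not, while 14 lost a call and 14 gained one. Their normoxic tests kept their side of the threshold in 102 of 102. Of 1821 recomputed values of called changes of other genes in the lists, 185 lost the call and 0 changed sign. In 1 joint fit of all 24 libraries the called genes numbered 2609 in A549, 8054 in HCT116, 1292 in PC3 and 3830 in T47D cells, against 4928, 6846, 4346 and 1864 in separate fits, and the snoRNA hosts that fell numbered 3 in A549 and 7 in PC3 cells. MIR210HG, NEAT1 and PVT1 lost their calls in PC3 cells in that fit. DESeq2 gave 4438 genes with an interaction, against 2940. Without replicate 3 of both states, 6058 genes were called in T47D cells, or 7317 with the replicate block as well, and 11 or 12 snoRNA hosts fell. Leaving out 1 library at a time gave 3109 to 5331 called genes in A549, 5339 to 6819 in HCT116, 2183 to 5361 in PC3 and 199 to 3305 in T47D cells, the lowest without normoxia replicate 2 of A549, hypoxia replicate 1 of PC3 and normoxia replicate 1 of T47D cells. It gave 1371 to 3674 genes with an interaction and 14557 to 14927 that differed in normoxia (14596 with all libraries). The snoRNA hosts that fell then numbered as few as 2 in A549 cells and 0 to 10 in T47D cells. With the replicate block, 5002, 7684, 4587 and 2766 genes were called in A549, HCT116, PC3 and T47D cells, and 3683 had an interaction. Under the block NEAT1 gained its call in T47D cells, and MALAT1 gained one in A549 cells, as it also did in DESeq2 (−0.51), under scaling by total count (−0.62), without the filter (−0.51) and without hypoxia replicate 1 (−0.83). In A549, HCT116 and PC3 cells the numbers were not taken as pairs, with same-numbered r from 0.0707 to 0.288. Whether they pair libraries there is not settled. In PC3 cells same-numbered r ran from 0.0785 to 0.0815 and differently numbered r from −0.0611 to −0.0177. Under scaling by total count the median of all genes' log2 fold changes was −0.13 in A549 and −0.12 in T47D cells, against −0.01 in both. The causes of these changes were not tested. Depth limits H19 in PC3 cells (4 to 26 counts) and MIR210HG in normoxic A549 cells (18 to 34 counts) most.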
